A study of Mus musculus with 8 samples.

Results

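Expression of 9 genes of myelin and of the oligodendrocytes that make it was read from mouse brain arrays. The genes were Mbp, Mog, Mag, Mobp, Cnp, Mal, Ermn, Opalin and Cldn11. They were chosen by name, with earlier results of these data known. Every probe set whose gene symbol in the platform annotation was one of these was used, whatever its values. Each gene had 1 probe set, so 9 of the 19505 genes named on the table (22206 probe sets) were followed here, and all 9 passed the filter on low values. RNA came from male mice 12 weeks of age that had received clothianidin, a neonicotinoid insecticide written CLO in the labels, at 50 mg/kg/day for 2 weeks, or the vehicle, 1% DMSO. The dose is the no observed adverse effect level named by the submitters. The 4 groups were cerebral cortex after clothianidin (CLO50), cerebral cortex after vehicle (Ctrl), hippocampus after clothianidin and hippocampus after vehicle, with 2 arrays each (numbers 3 and 6 for CLO50, 1 and 6 for Ctrl). The strain is not stated, no allele or transgene is named, and whether the pair of arrays in a group stands for separate animals is not stated. The p-values therefore rest on differences between single samples that could be technical in origin.

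Myelin is the stacked membrane that oligodendrocytes wrap around axons in the brain, and it speeds the conduction of nerve impulses and supports the axon. Its proteins differ in place: some glue the membrane layers together in compact myelin, some sit on the outer or innermost wrap and face the axon or the outside, and others shape the cytoskeleton, the tight junctions and the membrane traffic of the cell. In the adult brain these genes are used as markers of mature, myelinating oligodendrocytes, and transcription factors such as Olig2, Sox10 and Myrf drive the lineage that expresses them.

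The promoters of 4 genes, picked by their values in these data, are shown, and a link between sequence and values was not tested. Opalin was the gene that differed between tissues. Cldn11, Ermn and Mobp had the most negative exposure differences averaged over tissues, none of which passed the test. Promoter windows of RefSeq (assembly GRCm38.p6) matched 8 of the 9 genes by symbol, all but Mbp. Each sequence below is the 250 bases before the start of transcription, read 5′ to 3′ in the direction of the gene, and capitals mark ACAAAG or ACAATG on either strand (CTTTGT is ACAAAG on the other strand). Both are core forms of the motif that SOX proteins such as SOX10 bind.
Opalin promoter, chr19:41077114-41077363, minus strand: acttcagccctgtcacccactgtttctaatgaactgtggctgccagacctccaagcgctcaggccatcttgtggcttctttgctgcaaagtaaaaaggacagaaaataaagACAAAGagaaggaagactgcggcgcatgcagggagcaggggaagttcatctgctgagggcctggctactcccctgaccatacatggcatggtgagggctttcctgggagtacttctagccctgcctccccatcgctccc
Mobp promoter, chr9:120149492-120149741, plus strand: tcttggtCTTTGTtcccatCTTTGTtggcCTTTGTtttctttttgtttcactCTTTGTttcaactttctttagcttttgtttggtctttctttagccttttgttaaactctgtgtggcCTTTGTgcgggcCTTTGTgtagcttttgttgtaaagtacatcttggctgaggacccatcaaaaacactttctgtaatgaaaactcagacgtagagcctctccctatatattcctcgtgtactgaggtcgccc
Ermn promoter, chr2:58052865-58053114, minus strand: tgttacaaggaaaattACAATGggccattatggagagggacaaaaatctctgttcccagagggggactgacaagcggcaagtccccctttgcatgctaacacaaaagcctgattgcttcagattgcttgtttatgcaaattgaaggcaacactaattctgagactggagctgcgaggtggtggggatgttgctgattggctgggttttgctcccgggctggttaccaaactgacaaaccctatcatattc
Cldn11 promoter, chr3:31149670-31149919, plus strand: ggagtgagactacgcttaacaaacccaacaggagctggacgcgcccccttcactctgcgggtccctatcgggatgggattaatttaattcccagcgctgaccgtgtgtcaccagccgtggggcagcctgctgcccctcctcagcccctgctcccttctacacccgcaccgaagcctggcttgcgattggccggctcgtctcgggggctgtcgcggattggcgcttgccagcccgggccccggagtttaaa

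Letters were searched on both strands in the whole windows, which run from 250 bases before to 50 bases after the start, and matches of different motifs overlapped 0 times in the 10 windows of these genes. ACAAAG was present in 5 of these 10 windows, from 4 of the 8 genes (Cnp, Mag, Mobp and Opalin), and in 18.7% of all 32851 windows of the table. A gene can have several windows, and those of Mag overlap. Mobp held 6 such matches, the one farthest from the start at 243 bases before it, and Opalin held one at 139 bases before the start and another after it. ACAATG was found for Ermn alone (1 of the 10 windows), 234 bases before its start, and in 12.6% of all windows. CTGGCAC, a motif of the myelin regulatory factor MYRF, was found for Cnp, Mag and Opalin (4 of the 10 windows), and in 5.01% of all windows. CAGCTG, an E-box of the kind that OLIG2-type proteins bind, was found for Opalin alone at its start site (1 of the 10 windows). It was present in 16.3% of all windows. TATAAA was found for none of the 8 genes and in 13.6% of all windows. These are matches of letters, not measured binding sites.

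Values are the deposited log2 values, and levels of different genes are not set against each other, because each probe set has its own response. Array medians lay between 5.21 and 5.40, and the correlation between the paired arrays of each group was 0.9867 to 0.9915 over all probe sets. The labelled tissues matched their markers in most cases: 10 of 11 hippocampus markers were higher in hippocampus and passed the test, and 7 of 9 cortex markers were lower there and passed it, while Lmo3 from the cortex list was higher in hippocampus by 2.89 (log2, averaged over arms). The choroid plexus gene Ttr (transthyretin) measured 15.41 in cortex Ctrl 6 and 19.51 in hippocampus Ctrl 1, against 4.17 to 7.76 on the other arrays, and results were also computed without these 2 arrays. A limma model over all 8 arrays was tested on 14804 probe sets, with Benjamini-Hochberg adjusted p under 0.05 as the threshold.

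The first comparison asked whether these genes differed in cortex after clothianidin. Of the 9 myelin genes, 8 had a lower mean in exposed than in control cortex, and none passed the test. Their median log2 difference was -0.31, against -0.03 over all probe sets tested, where 53.2% had a lower mean. Without array CLO50 6 the median was -0.12 and 6 of the 9 genes were lower. For 6 genes neither exposed value reached the lower control value (Mbp, Mobp, Cnp, Mal, Ermn and Cldn11), a pattern held by 21.4% of all probe sets tested. Called probe sets made up 0.00675% of those tested in cortex, and 915 (6.18%) had an unadjusted p under 0.05, with 0 of the myelin genes among them. In tissue RNA, fewer oligodendrocytes and less of these transcripts per cell cannot be told apart.

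Among the proteins of compact myelin, Mbp encodes myelin basic protein, which holds the cytoplasmic faces of the membrane together. Mbp measured 18.18 and 18 in exposed cortex, against 18.34 and 18.47 in control cortex. The groups did not overlap, and the difference was -0.32 (SE 0.18, 95% interval -0.70 to 0.07, limma adjusted p = 0.81). Mobp encodes a small basic protein of the same compartment. Mobp measured 12.51 and 12.47 in exposed cortex, against 13.04 and 12.70 in control cortex. Both exposed arrays were low and close together, with a difference of -0.38 (SE 0.27, interval -0.96 to 0.20, limma adjusted p = 0.85), which became -0.21 without Ctrl 1.

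Cldn11 encodes claudin 11, which forms the tight junctions between myelin wraps and is also made in meningeal cells. It measured 11.29 and 10.93 in exposed cortex, against 11.85 and 11.49 in control cortex. Cldn11 had the most negative difference of the 9 genes in cortex, -0.56 (SE 0.30, interval -1.22 to 0.10, limma adjusted p = 0.81), a level 1.47-fold lower after exposure. The arrays did not overlap, although the gap between the nearest pair was smaller than the spread within either arm. Mal, a lipid raft protein of membrane traffic in oligodendrocytes, measured 14.50 and 14.44 in exposed cortex, against 14.61 and 14.64 in control cortex. All 4 Mal values were close, and the difference was -0.16 (SE 0.23, limma adjusted p = 0.95).

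Ermn encodes ermin, an actin-associated protein of late oligodendrocyte maturation. Ermn measured 11.30 and 11.46 in exposed cortex, against 11.90 and 11.77 in control cortex. The exposed pair was lower with no overlap, by -0.45 (SE 0.32, interval -1.15 to 0.24, limma adjusted p = 0.85). Cnp encodes a phosphodiesterase that keeps cytoplasmic channels open in myelin. Cnp measured 13.39 and 12.95 in exposed cortex, against 13.48 and 13.48 in control cortex. Array CLO50 6 was the low one, and without it the difference of -0.31 (SE 0.22, limma adjusted p = 0.85) became -0.09.

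The surface proteins differed least in cortex. Mag, the myelin-associated glycoprotein of the wrap that faces the axon, measured 10.09 and 9.58 in exposed cortex, against 10.07 and 9.78 in control cortex. Mog, the myelin oligodendrocyte glycoprotein of the outermost surface, measured 9.67 and 9.52 in exposed cortex, against 9.19 and 9.78 in control cortex. Opalin, a transmembrane glycoprotein of mature oligodendrocytes, measured 9.34 and 8.98 in exposed cortex, against 9.07 and 9.36 in control cortex. The arrays of both arms overlapped for all 3 of these genes. Their differences were -0.09 for Mag (interval -0.72 to 0.54), 0.11 for Mog (-0.53 to 0.75) and -0.05 for Opalin (-0.63 to 0.52), and each changed sign when 1 array was left out. Without Ctrl 1 the values were 0.05 for Mag and -0.19 for Mog, without Ctrl 6 that of Opalin was 0.09, and without CLO50 6 those of Mag and Opalin were 0.17 and 0.12.

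**Figure D1:**
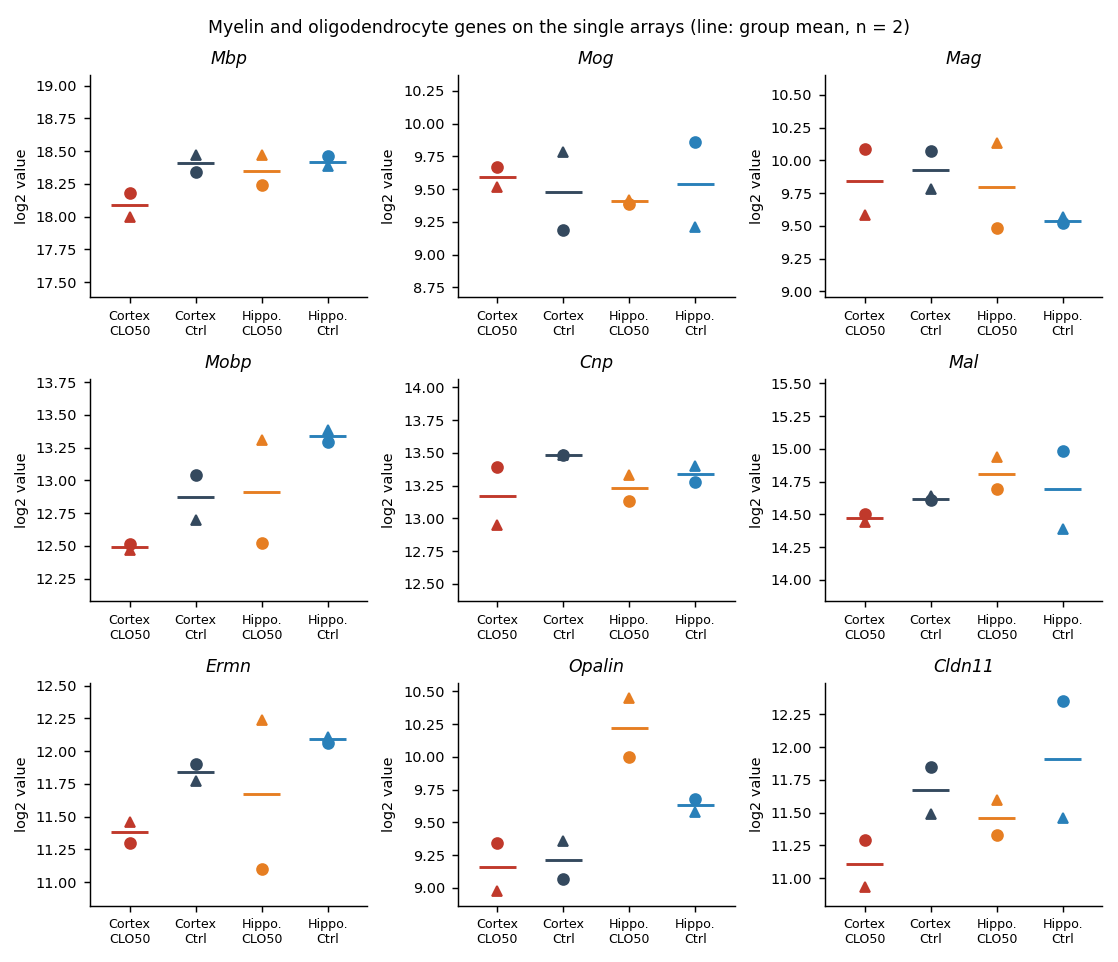
Deposited log2 values of the 9 genes on the single arrays (y axis, each panel spanning the same range of log2 units) in the 4 groups (x axis). Circles are arrays numbered 3 (CLO50) or 1 (Ctrl), triangles are arrays numbered 6, and lines are group means of n = 2; Ermn and Mobp in exposed hippocampus split into a low array 3 and a high array 6, and all 4 hippocampus values of Opalin lie above its cortex values.

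Hippocampus gave a more mixed picture. Of the 9 genes, 6 had a lower mean after exposure and 3 a higher one, with a median log2 difference of -0.11, against 0.01 over all probe sets tested, where 48.9% had a lower mean. None passed the test (0.00675% of all probe sets tested were called). For 1 gene, Opalin, the lower exposed value exceeded the higher control value, as for 16.7% of all probe sets, and for 0 genes the exposed pair lay wholly below (14% of all). An unadjusted p under 0.05 was found for 860 probe sets (5.81%), including Opalin. The median of the 9 genes was 0.05 without CLO50 3, and 0 without Ctrl 1.

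Opalin measured 10 and 10.45 in exposed hippocampus, against 9.68 and 9.58 in control hippocampus. The exposed arrays were both higher, by 0.59 (SE 0.27, interval 0.02 to 1.17, unadjusted p = 0.045, limma adjusted p = 0.85), which became 0.37 without CLO50 6. Mag measured 9.48 and 10.13 in exposed hippocampus, against 9.52 and 9.57 in control hippocampus. Only CLO50 6 stood above the others, so that the Mag difference of 0.26 (interval -0.37 to 0.89, limma adjusted p = 0.96) became -0.06 without it. Mog measured 9.39 and 9.42 in exposed hippocampus, against 9.86 and 9.21 in control hippocampus. The exposed values lay between the control values, with a difference of -0.13 (interval -0.77 to 0.51), which became 0.19 without Ctrl 1.

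Ermn and Mobp had a like pattern in hippocampus, in which one exposed array was low and the other was near the controls. Ermn measured 11.10 and 12.24 in exposed hippocampus, against 12.06 and 12.11 in control hippocampus. The difference was -0.41 (SE 0.32, interval -1.11 to 0.28, limma adjusted p = 0.94), and 0.16 without CLO50 3. Mobp measured 12.52 and 13.31 in exposed hippocampus, against 13.29 and 13.38 in control hippocampus. Its difference was -0.42 (SE 0.27, interval -1 to 0.16, limma adjusted p = 0.91), and -0.02 without CLO50 3. The groups overlapped for both genes, since the higher exposed array exceeded at least one control array.

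Cldn11 measured 11.33 and 11.60 in exposed hippocampus, against 12.35 and 11.46 in control hippocampus. Control array 1 was the high one, and without it the difference of -0.44 (SE 0.30, interval -1.10 to 0.22, limma adjusted p = 0.93) was 0. On that array the summed linear level of the meningeal and fibroblast markers was 19.8 and that of the choroid plexus markers 775 (in units of 1000), against 6.62 and 0.598 on Ctrl 6. On the other hippocampus arrays the meningeal sum was 10.7 on CLO50 3 and 2.57 on CLO50 6, where Cldn11 measured 11.33 and 11.60. On Ctrl 6, with a sum of 6.62, Cldn11 measured 11.46. The part of meningeal cells in the Cldn11 values was not tested. Mal measured 14.69 and 14.94 in exposed hippocampus, against 14.98 and 14.39 in control hippocampus. The exposed values of Mal lay inside the control range, with a difference of 0.13, which became -0.17 without Ctrl 6.

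The 2 other genes differed little. Mbp measured 18.24 and 18.47 in exposed hippocampus, against 18.46 and 18.39 in control hippocampus, an overlap with a difference of -0.07 (interval -0.45 to 0.31), which became 0.05 without CLO50 3. Cnp measured 13.13 and 13.33 in exposed hippocampus, against 13.28 and 13.40 in control hippocampus, again an overlap, with a difference of -0.11 (interval -0.59 to 0.37). For Mbp the interval ran from a 1.37-fold fall to a 1.24-fold rise. It rests on 2 arrays a group, which may not be separate animals.

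**Figure D2:**
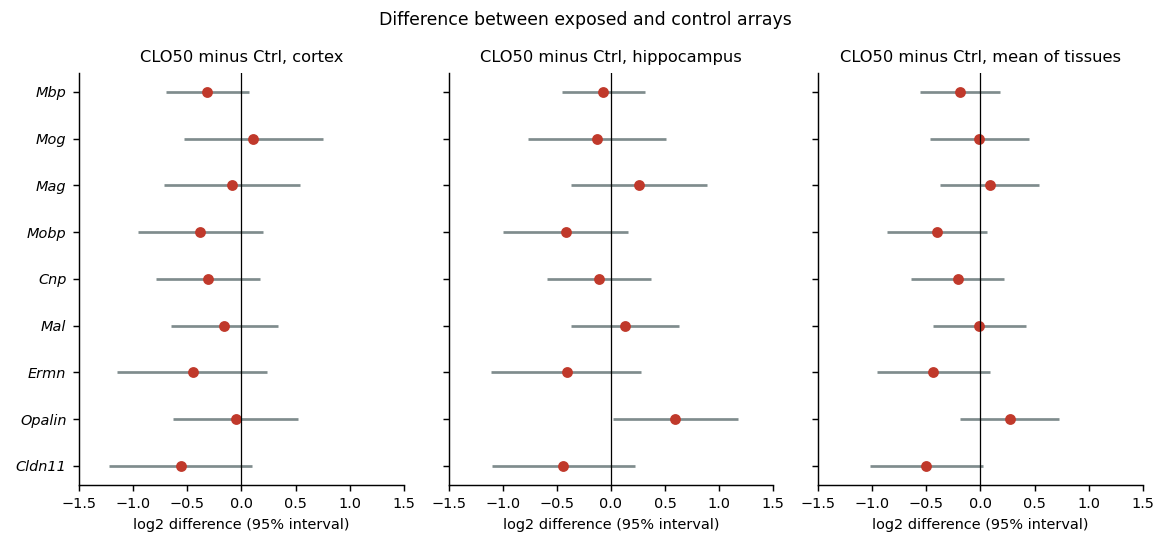
Log2 difference of CLO50 minus Ctrl for each of the 9 genes (x axis; points are estimates and lines 95% intervals from limma) in cortex, in hippocampus and averaged over both tissues. Intervals of 8 genes span 0 in every panel, and that of Opalin excludes 0 in hippocampus, from 0.02 to 1.17, before adjustment for the number of probe sets.

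Averaged over both tissues, fitted to the means of arrays of 1 arm and number, 7 of the 9 genes were lower in mean (50.9% of all probe sets) and 2 higher, and none passed (0.00675% of all probe sets were called, and 5.97% had an unadjusted p under 0.05). Exposed and control means did not overlap for 5 genes that were lower (17.8% of all probe sets) and for Opalin, which was higher (17.3%). Cldn11, Mobp and Ermn, at -0.50 (SE 0.24), -0.40 (SE 0.21) and -0.44 (SE 0.24), had limma adjusted p of 0.83, 0.84 and 0.84. Without number 3 of the exposed arm, Ermn was at -0.11 and Mobp at -0.21, and without number 1 of the control arm Cldn11 was at -0.19. The exposure difference in hippocampus minus that in cortex was positive for 7 genes (54.4% of all probe sets), with 0 called (0% of all probe sets tested were called, and 3.45% had an unadjusted p under 0.05). Opalin had the most positive one, 0.65 (SE 0.38, interval -0.17 to 1.47, limma adjusted p = 1).

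The tissues were compared next, and Opalin was the one gene of the 9 that passed. In exposed arrays Opalin was higher in hippocampus, at 10 and 10.45, than in cortex, at 9.34 and 8.98. The difference was 1.06 (SE 0.27, interval 0.49 to 1.64, 2.09-fold, limma adjusted p = 0.019), and 1 of 9 genes called higher stands beside 9.25% of all probe sets (14.5% in either direction). In control arrays Opalin measured 9.68 and 9.58 in hippocampus, against 9.07 and 9.36 in cortex. The control arrays did not overlap either, but the difference of 0.41 (SE 0.27, interval -0.16 to 0.99, limma adjusted p = 0.31) did not pass, and 0 of the 9 genes were called there, against 17.7% of all probe sets. The difference between these tissue contrasts is the one given above for exposure between tissues (0.65), which did not pass.

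Averaged over arms, Opalin rose in hippocampus relative to cortex by 0.74 (SE 0.19, interval 0.33 to 1.15, 1.67-fold, limma adjusted p = 0.011), as 1 of the 9 genes called higher beside 19.5% of all probe sets (31.3% in either direction). Its 4 hippocampal values all lay above its 4 cortical ones, as for 19% of all probe sets. The call in exposed arrays was lost without cortex CLO50 6 (difference 0.88) or hippocampus CLO50 6 (0.84). It held in the other 16 of 18 alternatives, but those that left out control arrays removed none of the arrays compared. The averaged call held in 17 of 17, at its weakest only just under the threshold. Mobp averaged 12.91 ± 0.56 in exposed and 13.34 ± 0.06 in control hippocampus, against 12.49 ± 0.03 in exposed and 12.87 ± 0.24 in control cortex (SD, n = 2 each). Its averaged tissue difference was 0.44 (SE 0.19, interval 0.03 to 0.86, limma adjusted p = 0.093), which passed with the arm and number as a fixed replicate block (0.45, limma adjusted p = 0.044) and without hippocampus CLO50 3 (0.64, limma adjusted p = 0.02), as did that of Ermn in the last setting. The deposited values of the probe sets tested were higher in hippocampus by a median of 0.11. With each array centred on its median over all probe sets (median centring), that median was -0.04. Opalin then remained higher by 0.59 (limma adjusted p = 0.032).

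The remaining genes did not pass between tissues. Averaged over arms, Cldn11 was at 0.29, Ermn at 0.27, Mal at 0.20 and Mbp at 0.14, and Cnp, Mog and Mag were at -0.04, -0.07 and -0.20, in each case hippocampus minus cortex. The sign for Mbp turned to -0.01 with median centring. In control arrays Mag was lower in hippocampus, at 9.52 and 9.57, than in cortex, at 10.07 and 9.78, with no overlap and a difference of -0.38 (interval -1.01 to 0.25, limma adjusted p = 0.40). For 3 of the 9 genes both hippocampal control arrays lay above both cortical ones (34.5% of all probe sets) and for 2 both lay below (24.7%), while in exposed arrays these numbers were 5 (35%) and 1 (22%).

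**Figure D3:**
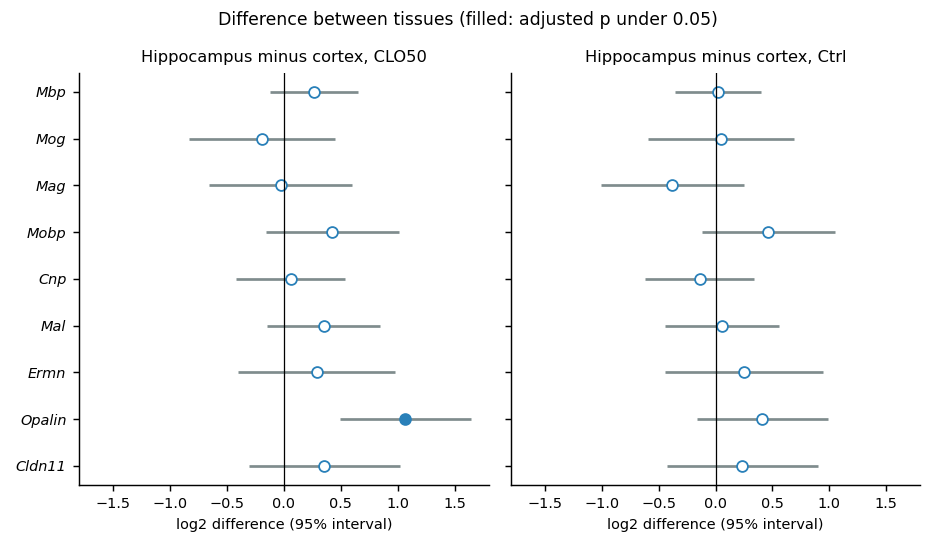
Log2 difference of hippocampus minus cortex for the 9 genes (x axis; points are estimates and lines 95% intervals from limma) in exposed and in control arrays. Filled points passed the adjusted threshold, which holds only for Opalin in exposed arrays (1.06), while Opalin in control arrays (0.41) and the other genes are open.

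The 9 genes did not vary as one block. Over the 8 arrays, which share their tissue and arm differences, Mobp and Ermn had the highest correlation of any pair (r = 0.93, and 0.96 after each tissue's mean was removed). Mbp followed the mean of the other 8 genes most closely (r = 0.88, and 0.85 within tissues), whereas Mog did not follow it (r = -0.01 and 0.09). Opalin and Mag were nearly unrelated over all arrays (r = 0.05) and related within tissues (0.69). These correlations are descriptions of 8 arrays. The mean of the 9 genes relative to its tissue mean was -0.01 and -0.23 in exposed cortex, against 0.13 and 0.12 in control cortex, and -0.26 and 0.19 in exposed hippocampus, against 0.14 and -0.08 in control hippocampus. The cortical arms were thus apart by this summary, with exposed array 3 nearer to the controls than array 6, and the hippocampal arms overlapped. Of the single probe sets tested, 21.4% were lower and 17.1% higher in exposed cortex with no overlap.

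Outside the family, the genes whose values over the 8 arrays were most like that mean were Ado, Msto1, Slc38a11 and Chil1 (r = 0.961, 0.96, 0.957 and 0.954, out of 13232 genes ranked). Within tissues they were Gpr62 (0.983), Dnttip1 (0.979), Uvrag (0.975) and Arhgap23 (0.972). Gpr62, an orphan receptor gene, measured 7.07 and 6.65 in exposed cortex, against 7.26 and 7.27 in control cortex. In hippocampus it measured 6.12 and 6.73 after exposure, against 6.79 and 6.47 in controls, an overlap. Gpr62 was picked for its likeness to the mean of the 9 genes, so its values are no separate result.

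Other genes of the oligodendrocyte lineage were read from lists by stage and role. Of 42 other mature oligodendrocyte and myelin genes, 30 had a lower mean and 12 a higher one in exposed cortex (median -0.16), and 27 were lower and 15 higher in exposed hippocampus (median -0.10), with 0 called in either tissue. Newly formed oligodendrocyte genes numbered 8 lower and 4 higher of 12 in each tissue (medians -0.04 in cortex and -0.13 in hippocampus). Of 15 genes of myelin lipid synthesis, 9 were lower in exposed cortex (median -0.06) and 8 in exposed hippocampus (median -0.11). Precursor genes had medians of -0.01 and -0.04 over 14 genes, in cortex and then hippocampus. The axonal partners at the node and paranode, 16 genes, had medians of -0.07 in cortex and 0.20 in hippocampus. No gene of these lists passed for exposure, and of the peripheral myelin genes of Schwann cells only Pmp22 passed the filter, at 0.03 in cortex and 0.07 in hippocampus.

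**Figure D4:**
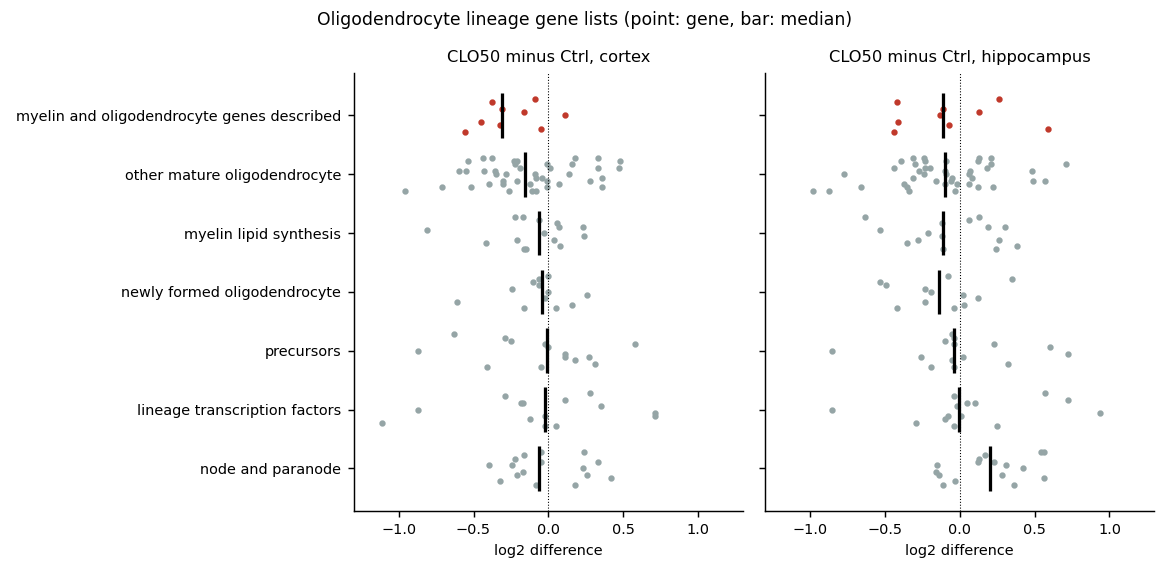
Log2 differences of CLO50 minus Ctrl (x axis) for single genes (points) of 7 lists (rows), in cortex and hippocampus, with list medians as bars. In cortex the medians of the 9 genes described and of the other mature genes are -0.31 and -0.16, and the medians of the remaining lists lie between -0.07 and -0.01.

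Klk6, a secreted protease gene of mature oligodendrocytes, had the smallest unadjusted p of the mature list in cortex. Klk6 measured 5.80 and 5.95 in exposed cortex, against 6.73 and 6.94 in control cortex, and 5.54 and 5.46 in exposed hippocampus, against 6.77 and 5.97 in control hippocampus. Exposed arrays were lower in both tissues with no overlap, by -0.96 (SE 0.31, limma adjusted p = 0.74) and -0.87 (SE 0.31, limma adjusted p = 0.82). In hippocampus the Klk6 difference was -0.47 without Ctrl 1. Tubb4a, a tubulin gene that is high in oligodendrocytes and also found in neurons, was at -0.52 in cortex and -0.35 in hippocampus, again with no overlap and without passing (limma adjusted p = 0.74 and 0.86). Cdk18, a kinase gene of mature oligodendrocytes, was at -0.35 and -0.77 (limma adjusted p = 0.86 and 0.81). Of the 42 mature genes, 13 were lower and 7 higher in exposed cortex with no overlap, against 21.4% and 17.1% of all probe sets tested. In exposed hippocampus 6 were lower and 2 higher with no overlap, against 14% and 16.7%.

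Lineage transcription factors had means on either side of their controls, with 8 of 14 lower in exposed cortex (median -0.02) and 7 of 14 lower in exposed hippocampus (median 0), and none passed. Olig2, which specifies the lineage, measured 9.04 and 8.68 in exposed cortex, against 10.12 and 9.34 in control cortex, and 9.26 and 9.73 in exposed hippocampus, against 10.75 and 9.95 in control hippocampus. Arms did not overlap in either tissue, with differences of -0.87 and -0.85 (SE 0.35 each, limma adjusted p = 0.78 and 0.84), and -0.48 and -0.46 without Ctrl 1 of that tissue. Sox10, which activates myelin genes, measured 8.07 and 7.52 in exposed cortex, against 9.21 and 8.59 in control cortex, and 8.35 and 8.15 in exposed hippocampus, against 9.18 and 7.89 in control hippocampus. The cortical difference of Sox10 was -1.11 (SE 0.40, limma adjusted p = 0.74) with no overlap, and its hippocampal one was -0.29, or 0.36 without Ctrl 1.

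Sox8, a relative of Sox10, had higher means after exposure. It measured 11.34 and 10.95 in exposed cortex, against 10.55 and 10.31 in control cortex, and 9.93 and 10.45 in exposed hippocampus, against 9.33 and 9.16 in control hippocampus. Both exposed arrays were higher in each tissue, by 0.71 (SE 0.27, limma adjusted p = 0.76) and 0.94 (SE 0.27, limma adjusted p = 0.77). Myrf, a direct activator of myelin genes, was at 0.28 in cortex and 0.57 in hippocampus, without passing (limma adjusted p = 0.93 and 0.90).

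**Figure D5:**
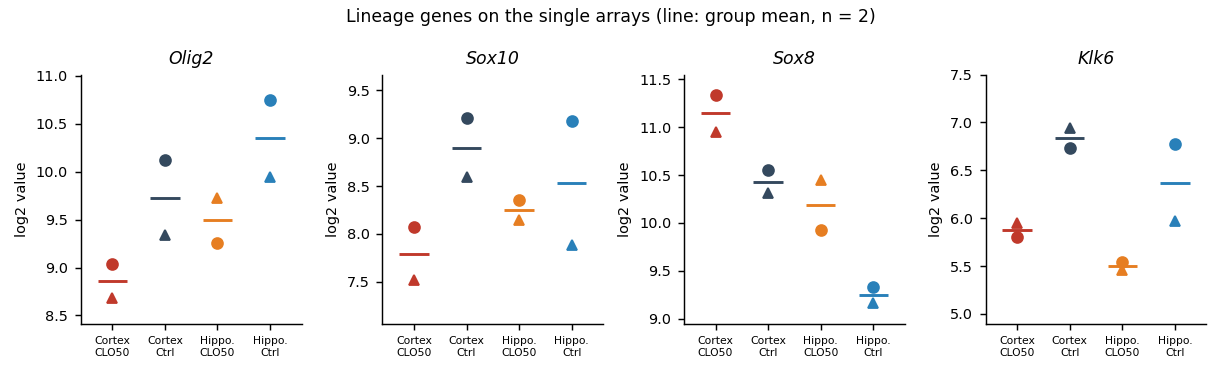
Deposited log2 values (y axis) of Olig2, Sox10, Sox8 and Klk6 on the single arrays in the 4 groups (x axis; circles are arrays 3 or 1, triangles arrays 6, lines group means of n = 2). Olig2 and Klk6 lie lower and Sox8 higher on exposed than on control arrays of the same tissue, and none of these differences passed the adjusted threshold.

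Between tissues, averaged over arms, 9 of the 42 other mature genes passed, 5 higher and 4 lower in hippocampus, beside 31.3% of all probe sets. Efnb3, an ephrin ligand gene, rose in hippocampus by 1.76 (limma adjusted p = 2.9e-05), Cd9 and Tspan2, tetraspanin genes of oligodendrocytes, rose by 1.17 and 0.82 (0.00064 and 0.0049), and Gpr37, a receptor gene, rose by 0.70 (0.0073). Pllp, the plasmolipin gene of compact myelin, fell by 1.13 (0.0023) and Septin4, of the inner cytoskeleton of myelin, fell by 0.88 (0.0013). Precursor genes had 2 of 14 called, both higher (Vcan by 1.53 and C1ql1 by 1.01), and the newly formed list had 3 called higher and 1 lower of 12, while 0 of 15 lipid synthesis genes were called. Many of these genes are also expressed by neurons or astrocytes, and bulk tissue gives 1 level for all of its cells.

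Markers of other cell types were read beside the cortical values. Of 12 microglial markers 10 had a lower mean in exposed cortex and their summed linear level (in units of 1000) was 5.42 to 5.77 in exposed, against 6.40 to 6.67 in control cortex. The sum of the 9 neuronal markers tested was 2100 to 2130 in exposed and 2160 to 2210 in control cortex, and that of the astrocyte markers overlapped (465 to 526 against 474 to 549). Meningeal and fibroblast markers had a higher mean for 9 of 12 genes tested. Sums over the 13 with a probe set were 3.45 to 7.82 in exposed and 3.25 to 4.61 in control cortex. Markers of the regions also differed with exposure in mean. In exposed cortex 7 of 9 cortex markers were lower (median -0.46). With no overlap, 4 of the 9 were lower and 2 higher, against 21.4% and 17.1% of all probe sets tested. Of 11 hippocampus markers, 6 were higher and 1 lower with no overlap. None of these markers was called. In exposed hippocampus 6 of 9 cortex markers were higher (median 0.52), and Tshz2, a cortex marker, was called (2.54, limma adjusted p = 0.045). No marker was at 0, since the lowest value on the table is 1.59, and the part of other cell types or of region makeup in the myelin values was not tested. In hippocampus all 10 choroid plexus and all 6 ependymal markers tested had a lower mean after exposure, and control array Ctrl 1 was the high one. Sums over the 12 choroid plexus markers with a probe set were 0.515 to 0.637 in exposed hippocampus, against 775 on Ctrl 1 and 0.598 on Ctrl 6. Sums over 7 ependymal markers were 2.89 to 7.69 in exposed hippocampus, against 14.9 on Ctrl 1 and 4.70 on Ctrl 6. For both lists the sum on Ctrl 6 lay within the exposed range. Without the 2 arrays high in Ttr, 7 of the 9 genes were lower in exposed cortex (median -0.25) and 4 of 9 in exposed hippocampus (median 0).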

How the data were processed

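Total RNA (250 ng, integrity number above 7.0) from cortex and hippocampus was hybridised to 1-colour Affymetrix arrays, per the labels' protocols. The authors deposited log2 values per probe set. The submitters' processing notes name RMA as the method. The sources used here do not give its version or say that the arrays were normalized as 1 set. The log base was read from the range of values (1.59 to 19.93) and from what RMA usually writes. No background value was available. The number of arrays limits the precision. The deposited values were used without further scaling. Symbols came from the platform annotation (19572 probe sets with 1 symbol, 2634 with none) and RefSeq.

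After the lowest 33.3% of probe sets by mean (below 3.937) were dropped, 14804 remained for testing. A mean per tissue and arm was fitted with limma 3.58.1 in R 4.3.3 (lmFit, eBayes with trend, 4 residual and 7.918 prior degrees of freedom). Tests were two-sided, adjusted by Benjamini-Hochberg within each comparison, with a threshold of 0.05. The exposure averaged over tissues used means of arrays of 1 arm and number. The fitting steps were tested on simulated data. Folds give the higher level divided by the lower.

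The members and lists were chosen with earlier results of these data known. The members are always named. From each list, genes past the threshold are named, at most 6 by p, otherwise up to 4 with the smallest unadjusted p, of which the text gives some. Further genes, up to 10 by correlation with the members' mean, come from the whole table. Alternatives covered the filter, normalization, scaling, variance model, array weights, samples in the fit, arrays high in Ttr, a replicate block and leaving out each array.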

Additional observations from a re-analysis of the deposited data

Results flagged for a closer look

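In 4 of the 18 sets of 1 gene and the 4 arrays of 1 tissue, 1 array stood apart by Dixon's test (95% level). Chance gives about 1 in 20 where all values come from 1 group. Each set joins exposed and control arrays, so that rate need not hold here. The sets are not independent, since Ermn and Mobp stood apart on the same array and vary together (r of 0.96 within tissues), and Cnp only just passed. Ermn measured 11.10 in hippocampus CLO50 3, below 12.24 in the other exposed array and 12.06 and 12.11 in the controls. Mobp on the same array measured 12.52, below 13.31 in the other exposed array and 13.29 and 13.38 in the controls. Mag measured 10.13 in hippocampus CLO50 6, above 9.48 in the other exposed array and 9.52 and 9.57 in the controls. Cnp measured 12.95 in cortex CLO50 6, below 13.39 in the other exposed array and 13.48 in both controls. In all 4 sets the array that stood apart was an exposed one, and the cause was not tested.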

How the results depend on the processing

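No myelin gene was called for exposure, or for its difference between tissues, under any alternative run. Over all 1098 gene values under alternatives, 1029 kept their sign and side of the threshold, 64 changed sign, 2 lost and 3 gained a call. All probe sets called in cortex numbered 1 as reported, 0 with quantile normalization or no trend, 2 with array weights, with only the compared groups or with a random replicate block, and 3 without the arrays high in Ttr. In hippocampus the 1 call became 0 with quantile normalization, no trend, array weights, only the compared groups or without the arrays high in Ttr. The difference between tissues had 0 calls and 1 with a fixed replicate block, and the averaged exposure had 1 and, with no replicate block on single arrays, 0. Tissue calls in control arrays numbered 2620, and 1155 without the arrays high in Ttr. With the fixed replicate block 2 myelin genes (Mobp and Opalin) were called between tissues averaged over arms, in place of 1. Arrays of 1 arm and number deviated together at r of 0.28 (CLO50) and 0 (Ctrl), so the numbers were not shown to mark pairs. The averaged exposure nevertheless joins cortex and hippocampus arrays by number, and its call depends on that step. That 1 call was Ttr (-5.70, SE 0.30, limma adjusted p = 6.4e-06). Joining by number put 4.17 with 19.51 for Ctrl 1 and 15.41 with 7.76 for Ctrl 6, a low and a high value each.

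Signs changed as follows. Without the arrays high in Ttr, Opalin in cortex was 0.09, Mog in hippocampus 0.19, Mobp in the difference 0.08, Mal and Cldn11 between tissues in controls -0.22 and -0.39, and Cldn11 averaged over arms -0.02; this setting could not be run for the averaged exposure, which lost a whole arm. With quantile normalization, Ermn and Cldn11 in the difference were -0.10 and -0.03, Mog in the averaged exposure 0.01, Cnp between exposed tissues -0.01, and Mbp and Mog between control tissues -0.04 and -0.03. With median centring, Cnp between exposed tissues was -0.08, Mbp, Mog and Mal between control tissues -0.14, -0.11 and -0.10, and Mbp averaged over arms -0.01. Of all tissue calls averaged over arms 62.2% were higher in hippocampus as deposited, 50.5% with quantile normalization and 44.5% with median centring; in control arrays these were 56.9%, 49.4% and 41%, and in exposed arrays 63.9%, 51.4% and 49.1%. The cause of these changes was not tested.

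Leaving out each array in turn gave 0 to 2 calls in cortex, 0 to 56 in hippocampus (56 without Ctrl 6), 0 to 30 in the difference and 1 to 26 in the averaged exposure. Between tissues it gave 1074 to 2440 calls in exposed arrays and 1289 to 2532 in control arrays. Myelin genes called were 0 to 1 between exposed tissues and 1 to 3 averaged over arms (3 without hippocampus CLO50 3), and their medians were 0.03 to 0.47 in exposed and -0.08 to 0.36 in control arrays. Ranges that crossed 0 were, in cortex, -0.19 to 0.40 for Mog, -0.34 to 0.17 for Mag and -0.23 to 0.12 for Opalin. In hippocampus they were -0.18 to 0.05 for Mbp, -0.46 to 0.19 for Mog, -0.06 to 0.59 for Mag, -0.17 to 0.42 for Mal and -0.98 to 0.16 for Ermn. In the difference they were -0.56 to 0.08 for Mog, -0.43 to 0.36 for Mobp, -0.02 to 0.42 for Cnp, -0.01 to 0.58 for Mal, -0.53 to 0.61 for Ermn and -0.33 to 0.56 for Cldn11. In the averaged exposure they were -0.04 to 0.02 for Mog and -0.15 to 0.13 for Mal. Between exposed tissues they were -0.35 to 0.30 for Mag, -0.16 to 0.28 for Cnp and -0.28 to 0.86 for Ermn. Between control tissues they were -0.04 to 0.08 for Mbp, -0.27 to 0.38 for Mog, -0.23 to 0.36 for Mal and -0.21 to 0.68 for Cldn11, and averaged over arms -0.23 to 0.09 for Mog, -0.15 to 0.07 for Cnp and -0.01 to 0.56 for Ermn.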
